A study of Mus musculus with 53 samples.

Results

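Proximal colon of mice with an activated Braf allele and a deleted TGF-beta receptor gene (BA) was compared with proximal colon of wild-type (WT) mice, both 30 days after induction with tamoxifen. The libraries were chosen by their labels alone, with no use of a measured value: 5 BA mice and 4 WT mice, which are 9 of the 53 libraries of the series. BA mice carried VilCreER+, 1 BrafV600E allele and 2 floxed copies of Alk5 (VilCreER+ BrafV600E/+ Alk5fl/fl). WT mice carried VilCreER+ alone, so both groups shared the Cre driver and the induction. The labels give a mixed C57BL/6J background for both groups and no drug. The study used adult males and females, and the sex of a single mouse is not given in the sources used here. The Y-linked gene Ddx3y was at 33.9 CPM or more in every BA and WT mouse, so by this gene all of them were male. One more group, A (VilCreER+ Alk5fl/fl, 4 mice, same day and tissue, no drug), served to set BA beside mice with the Alk5 deletion alone. RNA came from whole tissue, so each library holds epithelium, stroma, muscle, nerve and immune cells, and fewer cells of a type and less RNA per cell cannot be told apart in any result.

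VilCreER is a Cre recombinase that works in intestinal epithelial cells once tamoxifen is given, so recombination of the alleles is directed to epithelium and the cells around it keep theirs. The V600E change locks the BRAF kinase in an active state and drives the kinases MEK and ERK, whose output is transcription of growth genes and of genes that damp the pathway. ALK5, encoded by Tgfbr1, is the type I receptor through which TGF-beta ligands restrain epithelial growth. The proximal colon is lined by colonocytes that absorb salt, water and short chain fatty acids, by goblet cells that make mucus, and by scarce hormone-producing and tuft cells, over a lamina propria and a muscle wall with its own nerves.

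Levels below are normalised CPM, the counts of a library scaled to a common total (CPM) after TMM normalisation over the 13 libraries of BA, WT and A mice. They are not divided by gene length, so they compare mice and not genes. Library totals ran from 13266218 to 18603673 counts in BA and from 18411237 to 21249146 in WT, so that 3 counts, the floor used here, stood for about 0.173 CPM and 0.16 CPM at the median totals. This floor covers counting error only. Tgfbr1 was at 40.9 to 57 normalised CPM in BA and 34.2 to 64.5 in WT, and Braf was at 33.6 to 39.4 and 29.1 to 41.1. Counts over a whole gene show neither a deleted exon nor a single base change, so neither value checks the genotypes. The pseudogene Gm13394, of which 96.5% of 36-base words also occur in other genes, was at 102 to 238 in BA and 0.417 to 0.774 in WT, and in the BA mice Gapdh was at 29.6, 40, 133, 36.7 and 138 against 109 to 143 in WT. BA replicates 3 and 5 therefore stood apart from replicates 1, 2 and 4 in these paired sequences, and where the count of a list moved by over 1.5 times and by at least 3 genes without replicates 3 and 5, or without 1, 2 and 4, that count is given beside it. Both of these choices were made after the data were seen, and the second leaves 2 BA mice. A further control, 3 other WT proximal colon libraries that carry no day in their labels, replaced the day 30 WT mice as an alternative. These libraries held at most 0.185 CPM of Ddx3y, so by this gene they came from females. With this other WT control 46 of 92 list counts moved by over 1.5 times, and those that moved by at least 3 genes are given beside each list counted below. Mitochondrially encoded genes took 3.04% to 3.42% of counts in BA and 4.58% to 5.09% in WT.

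Most of the measured genes differed between the colons. In the test across all genes (edgeR quasi-likelihood, two-sided, adjusted p under 0.05, here called) 4516 of 17471 genes were higher in BA (25.8%) and 5118 were lower (29.3%), which is 55.1% in either direction. With a change of at least 2-fold added, 902 genes were higher (5.16%) and 1957 lower (11.2%), so that large decreases outnumbered large increases. The values of the 2 groups did not overlap for 7905 genes (45.2%). The first principal component of the 2000 most variable genes held 62.5% of the variance over the 13 libraries and put the BA mice between -62.7 and -45.1, the WT mice between 33.7 and 40.5 and the A mice between 22.9 and 33.8. With so many genes called, a list of genes is described below by its counts and its median log2 fold change, to be read beside these shares and beside the median over all genes of -0.026. The lists were chosen with earlier results of these data known and were not tested as sets.

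**Figure D1:**
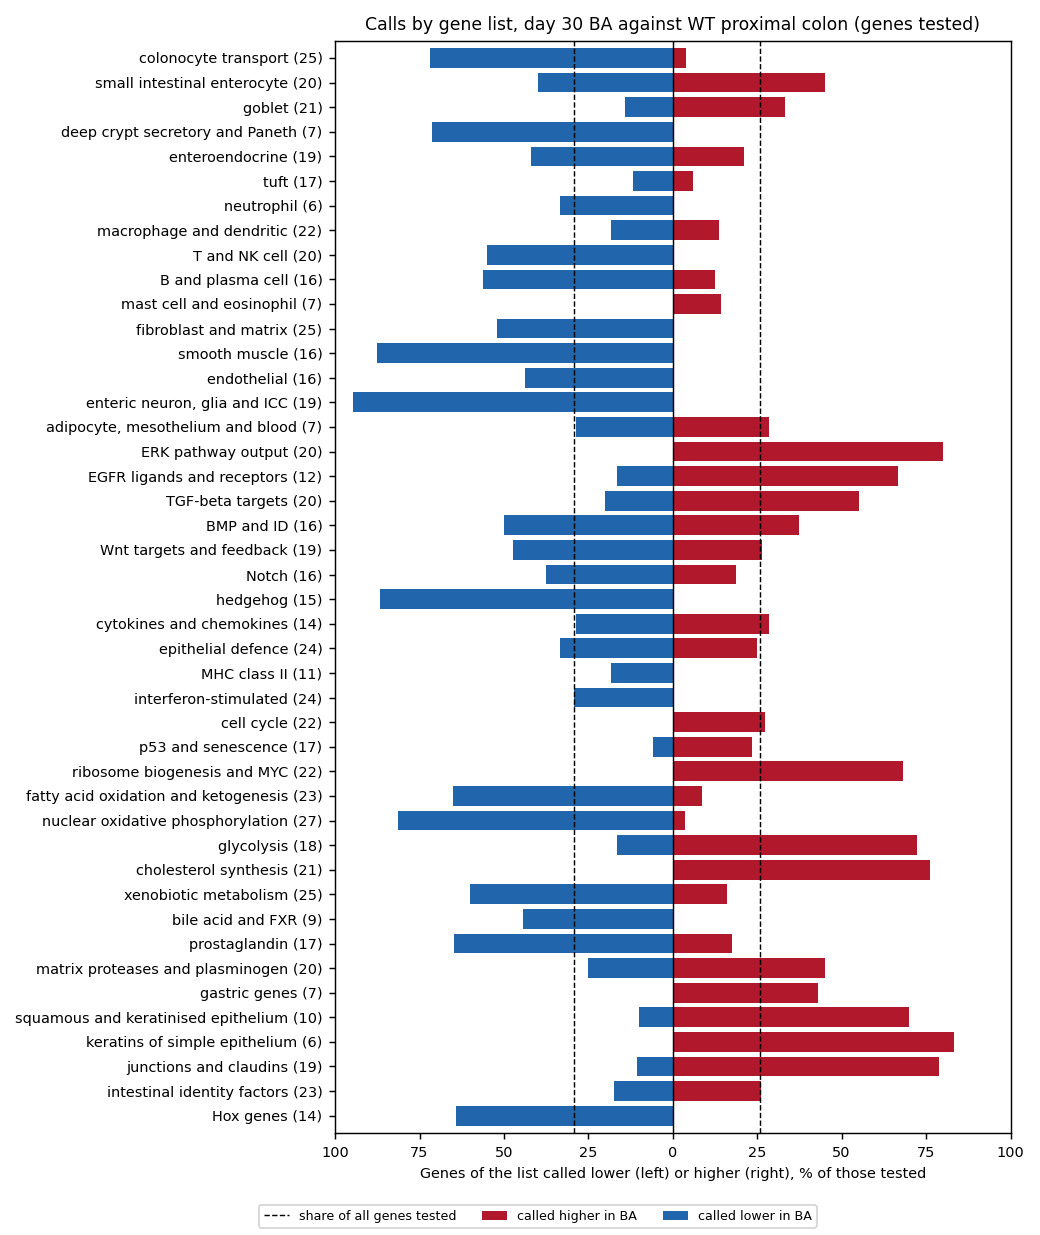
Percent of the tested genes of each list that were called lower (left, blue) or higher (right, red) in day 30 BA against WT proximal colon, with the number tested in brackets and the shares over all genes as dashed lines (29.3% lower, 25.8% higher). Smooth muscle, enteric nerve, hedgehog and oxidative phosphorylation lists lie almost wholly to the left, and ERK output, simple epithelial keratins, junctions, glycolysis and cholesterol synthesis lie to the right.

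The genes that rose furthest were plainly expressed in every BA mouse, and Ly6g, Prss22, Il5ra and Nt5c1a were at or near the floor in WT. Ly6g, a GPI-anchored surface protein used as the marker of mouse neutrophils, was at 321, 360.0, 445, 416 and 512 normalised CPM in the BA mice and at 0.257, 0.0516, 0.278 and 0.313 in the WT mice (log2 fold change 10.77, SE 0.26, adjusted p = 6.3e-10). Prss22, a trypsin-like serine protease, was at 70.3, 45, 74.1, 31.7 and 67.8 in BA and 0.206, 0.309, 0.139 and 0.104 in WT. Il5ra, the IL-5 receptor chain known from eosinophils, was at 30.9, 53.9, 61.1, 43.9 and 68.7 against 0.206, 0.103, 0.371 and 0.261. The WT values of these genes are at or close to the floor of 3 counts, so the size of the fold change depends on the fit and the levels are the better guide. Nt5c1a, a cytosolic nucleotidase, was close in all 5 BA mice, with 29.6, 28.7, 35.9, 33.7 and 34 in BA and 0.206, 0.258, 0.232 and 0.157 in WT. Syt8, of the synaptotagmin family of membrane fusion proteins, was at 91 to 138 against 0.783 to 1.8, and its highest WT value was that of replicate 1. Il1rn, the antagonist that blocks the IL-1 receptor, was abundant, at 545, 519, 633, 524 and 591 in BA and 15, 3.51, 2.46 and 6.68 in WT (log2 6.35, adjusted p = 8.3e-07). Ly6g, Prss22, Il5ra, Nt5c1a and Il1rn were higher in every BA mouse than in any WT mouse.

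Further leading genes that were higher in BA had varied known products. Trim29, a tripartite motif protein of stratified epithelia, was at 55.3 to 97.5 against 0.649 to 2.42. Fer1l4, a transcribed pseudogene of the ferlin family, was at 65.5 to 93.4 against 0.417 to 1.55, and Abo, the blood group glycosyltransferase, was at 35.2 ± 4.69 against 1.23 ± 1.13 (mean ± SD, n = 5 and 4). Alb, the serum albumin gene of liver, was uneven between BA mice, at 4.21, 39.1, 6.62, 31.1 and 10.2, and at most 0.417 in WT. None of these 4 genes shared a 36-base word with another gene.

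The furthest decreases were of transporters, enzymes and membrane proteins. Slc37a2, a sugar phosphate carrier of the endoplasmic reticulum, was at 5.08, 3.97, 5.38, 3.1 and 4.56 in BA and 677, 1770.4, 2576 and 850.4 in WT. Slc30a10, a manganese exporter, was at 4.28, 1.74, 2.15, 2.91 and 2.43 in BA and 181, 156, 248 and 225 in WT (log2 fold change -6.23, SE 0.22, adjusted p = 1.5e-08). Cps1, the mitochondrial enzyme that starts the urea cycle, was at 0.601, 2.7, 1.41, 2.0 and 1.89 against 67.7, 80.6, 69.1 and 93. Slc37a2, Slc30a10 and Cps1 did not overlap, with BA below WT. All 3 were expressed in every WT mouse at least 10-fold above the highest BA value. Ugt8a, which makes galactosylceramide, was at 0.12 to 0.745 against 21.3 to 32, and Hsd17b13, a lipid droplet dehydrogenase, was at 0.541 to 1.66 against 24.8 to 41.4. The gasdermin genes Gsdmc2 (9.53 to 46.2 against 336 to 1827) and Gsdmc3 (1.4 to 6.99 against 44 to 305), whose family forms membrane pores, share 60.5% and 55.6% of their words with each other or other genes, so their single levels are uncertain. Ces2b, a carboxylesterase, was at 0.781 to 1.84 against 35.7 to 54.7.

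**Figure D2:**
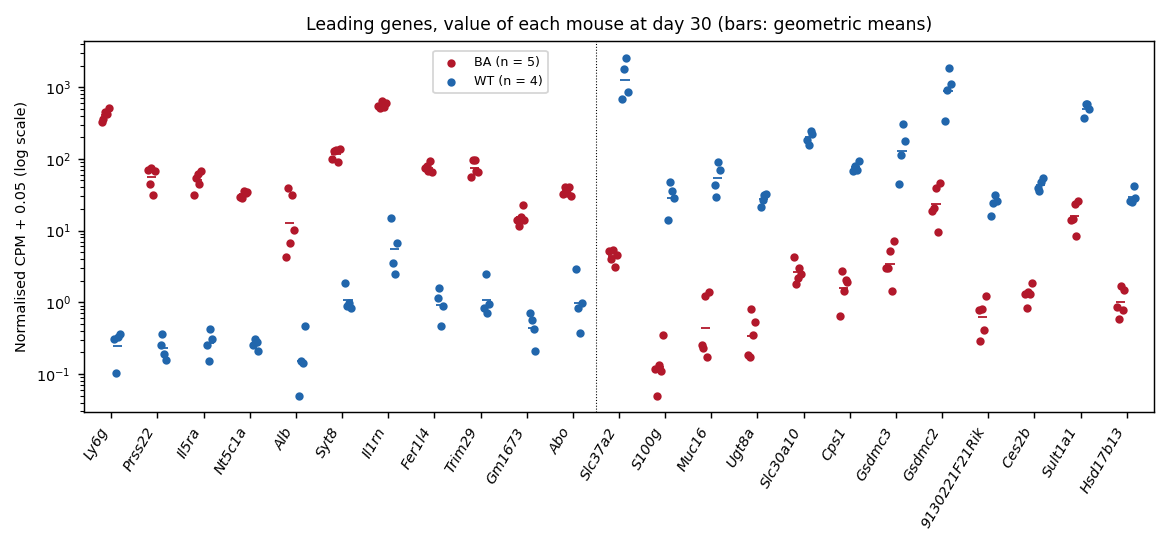
Normalised CPM plus 0.05 (log axis) of the leading genes, chosen by the size of their log2 fold change among called, non-overlapping genes of average log2 CPM of at least 3. The pseudogene Gm13394, whose levels are given in the text, was left out of the figure. Points are the 5 BA and 4 WT mice and bars are geometric means, with genes higher in BA left of the dotted line and genes lower right of it. The 2 groups of points are apart for every gene, by construction of the choice, and the BA values of Alb spread from 4.21 to 39.1.

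Genes driven by ERK were higher as a list. Of the 20 genes tested, 16 were higher and 0 lower, 11 of them by at least 2-fold, with a median log2 fold change of 1.23. The summed level of the list was 8109 to 10600.0 normalised CPM in BA and 2745 to 3445 in WT. Most of this sum was Emp1 in both groups, whose levels are given below. The mean log2 level over the list, which weighs each gene alike, was 5.55 to 5.80 in BA and 4.30 to 4.38 in WT. The phosphatase genes that ERK induces to switch itself off were among the higher genes. Dusp4 was at 33.8, 32.4, 45.3, 29.3 and 34.5 in BA and 2.42, 3.4, 3.25 and 2.5 in WT (log2 fold change 3.58, SE 0.16, adjusted p = 4.8e-08). Dusp6, which removes phosphate from ERK in the cytoplasm, was at 189.6, 242, 172, 214 and 130.5 against 30.7, 46.8, 44.7 and 33.8 (log2 2.27, adjusted p = 3.2e-06). Dusp4 and Dusp6 lay above the WT range in all 5 BA mice. Dusp5, its nuclear counterpart, was at 31.8 to 61 against 8.04 to 16.3. Spry2, a feedback inhibitor of receptor signalling, rose less, at 42.7 to 46.8 in BA against 17.5 to 27 in WT (log2 0.97).

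Transcription factors of the same output moved unevenly. Etv4 was at 34.1, 37.6, 43.4, 39.8 and 38.1 in BA and 5.14, 5.21, 4.13 and 4.12 in WT (log2 fold change 3.04, SE 0.11, adjusted p = 1.5e-08), with no overlap. Its close relative Etv5 was at 12.7 to 17.5 in BA and 11.6 to 25.7 in WT and was not called (log2 -0.22, adjusted p = 0.35). Egr1, an immediate early factor, was at 42.9 to 90.2 against 19.3 to 33.2, and Ccnd1, the cyclin that ERK induces in many cells, was not called, at 41.7 to 48 against 42.4 to 53.6. Epha2, an ephrin receptor, was at 303, 250.3, 337, 192 and 291 against 35.2, 36.4, 38.8 and 43.4 (log2 2.83, adjusted p = 1.3e-07). Emp1, a small membrane protein of epithelia, was at 7676, 8353, 9339, 7055 and 9266 in BA and 2319.9, 3019, 2780.4 and 2501 in WT (log2 fold change 1.64, SE 0.11, adjusted p = 5.8e-07). Etv4, Epha2 and Emp1 were higher in every BA mouse than in any WT mouse.

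The 250 bases before the Emp1 start are shown because it was the 1 gene of 12 ERK list genes with a RefSeq promoter that held the AP-1 motif TGANTCA, the site bound by FOS and JUN proteins, on either strand. In all, 8.97% of 27025 promoters of 300 bases hold it. The sequence is read along the + strand of GRCm38.p6, chr6:135362681-135362930, and capitals mark the 2 matches, whose first bases lie at -145 and -25 from the start. A match is a description of letters and no evidence of binding.
Emp1: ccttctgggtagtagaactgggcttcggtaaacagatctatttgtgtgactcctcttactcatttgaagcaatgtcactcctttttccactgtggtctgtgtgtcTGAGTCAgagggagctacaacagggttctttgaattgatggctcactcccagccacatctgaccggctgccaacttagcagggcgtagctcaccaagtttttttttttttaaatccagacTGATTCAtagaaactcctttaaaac

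Receptors and ligands of the EGFR family moved in both directions. Of 12 genes tested, 8 were higher and 2 were lower. The receptor Egfr was at 105, 93.8, 137, 100.1 and 112 in BA and 37.4, 34.3, 41.7 and 47.5 in WT (log2 fold change 1.44, SE 0.12, adjusted p = 3.2e-06), and Erbb3, its partner without kinase activity, was at 809 to 907 against 412 to 648 (log2 0.75). Among ligands made by epithelium, Btc was at 12.1 to 20.2 against 3.53 to 5.81 and Ereg at 18.4 to 26.2 against 9.5 to 14.6, while Areg, at 60.9, 40.3, 47.2, 26.6 and 45.7 against 12.7, 34.3, 18.5 and 10.9, was called with overlapping groups (adjusted p = 0.0084). The ligands that fell were Egf, at 0.753 ± 0.0945 in BA and 3.56 ± 1.25 in WT (mean ± SD, n = 5 and 4, log2 -2.23, adjusted p = 2.5e-05), and Nrg1, a ligand of ERBB3 made mainly by stroma, at 1.27, 1.62, 2.48, 0.425 and 2.07 against 10.5, 9.13, 8.26 and 10.6 (log2 -2.64, adjusted p = 3.8e-05). Egfr did not overlap, with BA above WT, while Egf and Nrg1 did not overlap, with BA below WT and Areg overlapped between the groups. Ligand and receptor levels on RNA do not give the activity of the receptor.

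Immediate early genes were also higher in part. Of 12 immediate early and heat shock genes, 6 were higher and 0 lower (3 lower with the other WT control). Fos was at 256, 238, 323, 179 and 204 in BA and 55.4, 137, 102 and 84.4 in WT (log2 1.33, adjusted p = 7.6e-04), and Atf3, a stress-induced factor, was higher too (log2 1.39, adjusted p = 2.7e-05). Fos lay above the WT range in all 5 BA mice. Jun was not called, at 169.5 to 213 against 152 to 194. These genes also respond to the handling of tissue, and the time from death to freezing is not given in the sources used here, so its part in the result was not tested.

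Genes of the TGF-beta list were not lower as a group, although the receptor gene was floxed in BA epithelium. The list holds induced genes and also regulators, ligands and integrins, and each library includes stroma, which keeps the receptor. Of 20 genes tested, 11 were higher and 4 lower (median log2 0.51), and 2 were lower without WT replicate 4 and also without BA replicates 1, 2 and 4, and 1 with the other WT control. Pmepa1, a feedback inhibitor of the pathway, was at 94.5, 80.3, 95.8, 63.7 and 78.7 in BA and 37, 43.2, 34.8 and 38.9 in WT (log2 1.09, adjusted p = 2.0e-05). Pmepa1 was higher in every BA mouse than in any WT mouse. Skil, a SMAD corepressor, was at 135 to 163 against 72.4 to 90. Itgav, the integrin chain that takes part in freeing TGF-beta from its latent complex, had the largest rise, at 151 to 231 against 58.7 to 83.4 (log2 1.46). Tgfbi, a matrix protein induced by the pathway, was not called (log2 0.16, adjusted p = 0.3). The ligand Tgfb2 had the largest fall of the list, at 2.61 to 6.12 against 7.45 to 8.72 (log2 -1.00), and lost its call with the other WT control.

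BMP and ID genes were split. Of 16 tested, 6 were higher and 8 lower, and 2 were higher with the other WT control. Id1, an inhibitor of differentiation factors induced by BMP, was at 147, 123, 180.4, 129.5 and 231 in BA and 97.8, 123, 87.9 and 97.3 in WT (log2 0.67, adjusted p = 0.0071), and Id3, of the same family, was at 51.5, 50.5, 50.1, 50.3 and 61 against 87.9, 80.2, 79.6 and 91.1 (log2 -0.69, adjusted p = 1.9e-05). Id3 did not overlap, with BA below WT, while the groups overlapped for Id1. So 2 genes that both respond to BMP moved in opposite directions, as did Id4 (log2 0.76) and Id2 (log2 -0.55). With the other WT control the calls of Id1 and Id4 were lost.

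Wnt target and feedback genes moved in both directions. Of 19 tested, 9 were lower, 5 higher and 5 not called (median log2 -0.46). The mean log2 level over the list, which weighs each gene alike, was lower in every BA mouse, at 3.09 to 3.37 against 3.45 to 3.53. The summed level, in which abundant members weigh most, was higher in every BA mouse, at 606 to 687 normalised CPM against 527 to 542. Axin2, a scaffold of the complex that destroys beta-catenin and a common readout of Wnt, was at 10.9, 8.53, 11.3, 8.56 and 10.7 in BA and 19, 17.9, 17.5 and 20 in WT (log2 fold change -0.91, SE 0.10, adjusted p = 2.9e-05). Ascl2, a crypt stem cell factor, was at 2.4, 1.5, 1.41, 1.4 and 1.89 against 3.24, 4.18, 3.57 and 4.7 (log2 -1.19, adjusted p = 4.9e-04), and the ubiquitin ligase Rnf43 at 16.2 to 19.8 against 23.8 to 28.4. Axin2 and Ascl2 lay below the WT range in all 5 BA mice. Nkd2, a further inhibitor, had the largest fall (log2 -1.57). Sp5, a transcription factor and Wnt target, had the largest rise and was low in both groups, at 1.09 to 2.81 against 0.514 to 0.928. Its call was lost with the other WT control.

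Notch genes showed no single direction. Of 16 tested, 3 were higher and 6 lower. The ligand Jag2 was at 23.3, 24.4, 26.8, 19.8 and 24 in BA and 7.61, 7.53, 7.14 and 6.21 in WT (log2 fold change 1.72, SE 0.10, adjusted p = 2.8e-07), while the ligand Dll4, which is also made by endothelium, was at 10.5, 10.3, 12, 7.95 and 11.1 against 17.4, 23.7, 19.5 and 24.4 (log2 -1.05, adjusted p = 6.9e-05). Jag2 was higher in every BA mouse than in any WT mouse, while Dll4 was lower in every BA mouse than in any WT mouse. Dll4 lost its call with the other WT control. Hes1, the main Notch target of crypt cells, was not called (log2 0.26, adjusted p = 0.25).

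Hedgehog genes were lower across the pathway. Epithelial cells of the colon make the ligand and stromal cells receive it. Of 15 genes tested, 13 were lower and 0 higher (median log2 -0.85). The target Gli1 was at 4.01, 5.89, 7.53, 3.58 and 6.1 in BA and 11.5, 10.8, 11 and 15.5 in WT (log2 fold change -1.19, SE 0.21, adjusted p = 5.7e-04). Ptch1, the receptor and itself a target, was at 31.5 to 41.7 against 49 to 69.3, and Gli3, a repressor of the pathway, had the largest fall (log2 -1.46). The ligand Ihh was at 91, 120.2, 106, 85.7 and 103 against 96.6, 176, 152 and 119, called with overlapping groups (adjusted p = 0.039), lost the call without any 1 of 6 of the 9 mice (adjusted p up to 0.13), and turned higher in BA with the other WT control. Gli1 did not overlap, with BA below WT, while Ihh overlapped between the groups. Smooth muscle and enteric nerve lists, given below, were lower in the same mice, and their part in the fall of these stromal genes was not tested.

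Absorptive genes of the colon were mostly lower. The colonocyte transport list held 25 tested genes, of which 18 were lower and 1 higher (median log2 -0.73), and the other WT control left 4 higher and 10 lower. Slc20a1, a phosphate carrier, was at 79.4, 77.6, 97.8, 70.9 and 105 in BA and 331, 725, 1064 and 481 in WT (log2 fold change -2.93, SE 0.29, adjusted p = 9.4e-06). Trpm6, a channel for magnesium uptake, was at 29, 33.7, 31.5, 12.1 and 44.3 against 152, 218, 245 and 211 (log2 -2.79, adjusted p = 1.1e-05), and S100g, a calcium-binding protein of absorptive cells, was at 0.0668, 0, 0.0828, 0.0607 and 0.296 in BA, at or under the floor of 3 counts in all but replicate 5, and 13.9, 47.9, 35.2 and 28.3 in WT. Slc26a3, the chloride and bicarbonate exchanger of the apical membrane, was at 456, 570.5, 381, 439 and 497 against 974, 944, 1611 and 1016 (log2 -1.29, adjusted p = 7.4e-05). Slc20a1, Trpm6, S100g and Slc26a3 lay below the WT range in all 5 BA mice. Car1, a carbonic anhydrase of surface colonocytes, did not pass the test, at 21285 to 23852 against 19248 to 25434. Against the other 3 WT libraries Slc26a3, Aqp8 and Car4 turned higher in BA, so their falls (log2 -1.29, -0.53 and -0.52) rest on the day 30 WT mice. Slc20a1 lost its call against those libraries. Aqp8 also lost the call without BA replicate 4 or 5 or WT replicate 2 or 3 (adjusted p up to 0.079).

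Enterocyte genes, which mark the small intestine, split within the list. Of 20 tested, 9 were higher and 8 lower, and 4 were lower without BA replicates 1, 2 and 4. Slc15a1, which takes up small peptides, was at 50.5, 27.5, 63.6, 32.1 and 68.6 in BA and 2.11, 1.08, 3.94 and 4.28 in WT (log2 fold change 4.06, SE 0.39, adjusted p = 8.2e-06). Fabp2, a fatty acid binding protein, was at 1388 to 1979.8 against 502 to 1229.8 (log2 0.94), and Apob, the protein core of chylomicrons, at 714 to 1032 against 235 to 364 (log2 1.55). The disaccharidase Sis, which defines small intestinal brush border, was low and was not called, at 1.87, 0.30, 2.4, 8.25 and 1.72 against 4.01, 0.516, 0.417 and 3.39, and Fabp1 was at 0.474 to 3.6 against 0.206 to 0.835. Slc15a1 was higher in every BA mouse than in any WT mouse, while Sis overlapped between the groups. Cubn, the receptor for vitamin B12, had the largest fall (log2 -2.45).

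Keratins and junction genes of simple epithelium were higher. Of 6 such keratins, 5 were higher and 0 lower. Krt18 was at 1381, 1557, 1657, 1528 and 1429 in BA and 183, 278, 242 and 210.4 in WT (log2 fold change 2.72, SE 0.13, adjusted p = 5.7e-08). Its filament partner Krt8, which shares 33.9% of its words with other genes, was at 6685, 7262, 7418, 6119.5 and 7683 against 2972, 3259.9, 2812 and 2974 (log2 1.22, adjusted p = 6.1e-07), and Krt20, of differentiated surface cells, was at 2676 to 3491 against 1435 to 1751. Of 19 junction genes, 15 were higher and 2 lower. Cldn4, a claudin of tight junctions, was at 396, 523, 547, 395 and 493 in BA and 77.1, 254, 141 and 152 in WT (log2 1.58, adjusted p = 5.3e-04), and Tjp1, a scaffold below the junction, was at 287 to 325 against 120.4 to 145. The claudins that fell were Cldn8, a sealing claudin of distal colon, at 1.67, 1.74, 1.9, 1.94 and 1.72 against 26, 8.97, 10.5 and 15.5 (log2 -3.08, adjusted p = 7.6e-06), and Cldn15, which forms a sodium pore, at 115 to 129 against 176 to 218. Krt18, Krt8 and Cldn4 did not overlap, with BA above WT, while Cldn8 did not overlap, with BA below WT.

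Genes of intestinal identity were mostly not called. Of 23 genes tested, 6 were higher, 4 lower and 13 not called, and 11 were higher with the other WT control. Cdx2, the master factor of intestinal fate, was at 324, 389, 306, 349 and 333 in BA and 325, 421, 370.1 and 313 in WT (log2 -0.08, adjusted p = 0.54). Cdx1 was at 259 to 283 against 231 to 287 and was not called. Hnf4a, a driver of enterocyte genes, was higher, at 1389.8, 1465, 1435, 1372 and 1471 against 829, 991, 885 and 816 (log2 0.69, adjusted p = 1.9e-05), and Prdm1, a repressor of the immature gut, had the largest rise (log2 1.16). Hnf4a lay above the WT range in all 5 BA mice, while Cdx2 overlapped between the groups. Ppargc1a, a coactivator of mitochondrial genes, had the largest fall, at 4.27 to 10.7 against 15.2 to 25.3 (log2 -1.59).

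Goblet cell genes did not move together. Of 21 tested, 7 were higher, 3 lower and 11 not called. The other WT control turned this balance, with 3 higher and 10 lower of 21. Muc2, the gel-forming mucin of the colon, was at 4075, 3607, 3662, 4469 and 2893 in BA and 5894, 2829, 2548 and 4181 in WT (log2 -0.05, adjusted p = 0.86), and Fcgbp, a mucus protein, was at 2225 to 3030.1 against 1904 to 3464. Atoh1, the factor that commits cells to secretory fate, was at 42.3 to 46.5 against 39.1 to 44.5 and was not called. Sytl2, which takes part in vesicle release, had the largest rise, at 116 to 199 against 44.9 to 72.9, and Zg16, a lectin of mucus, was at 2879.7, 2429, 2478, 3666 and 2347 against 994, 1378, 1292 and 1409 (log2 1.11, adjusted p = 1.0e-04). Best2, a bicarbonate channel of colonic goblet cells, was at 0.601, 0.721, 0.579, 0.303 and 0.237 in BA and 3.03, 6.86, 7.14 and 9.18 in WT (log2 fold change -3.75, SE 0.37, adjusted p = 1.1e-05). Zg16 was higher in every BA mouse than in any WT mouse, while Best2 was lower in every BA mouse than in any WT mouse and the groups overlapped for Muc2. Zg16 lost its call with the other WT control. Klk1, a kallikrein, was at 118 to 134 against 212 to 315.

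Genes of deep crypt secretory and Paneth cells were lower in most of the few that could be tested. Of 13 genes, 7 were tested, of which 5 were lower and 2 not called. Reg4, a secreted lectin that marks deep crypt secretory cells of the colon, was at 946, 1045, 1049, 488 and 1025 in BA and 958, 1655, 1748 and 2303 in WT, with overlap (log2 -0.88, adjusted p = 0.012), and turned higher in BA against the other 3 WT libraries. Mptx1, a pentraxin, was at 0, 0, 0, 0 and 0.0592 in BA and 0.72, 5.98, 23.5 and 18 in WT. Mptx1 did not overlap, with BA below WT, while Reg4 overlapped between the groups. Itln1, a lectin that binds microbial sugars, was at 0 to 0.20 against 0.72 to 12, and Clps, a cofactor of lipase, at 0 to 0.248 against 1.96 to 6.05. Lyz1, the lysozyme of Paneth cells, was not called (log2 -0.67, adjusted p = 0.13). The colon holds no Paneth cells in health, and Defa24 was at or near 0 in every BA and WT mouse.

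Enteroendocrine genes moved in both directions, and the calls of tuft cell genes depended on single mice. Of 19 enteroendocrine genes, 4 were higher and 8 lower. Fewer were lower without BA replicates 3 and 5 (5 genes) and without 1, 2 and 4 (3 genes, with 2 higher), whereas 13 of 23 were lower and 1 higher with the other WT control. Chga, the granule protein common to these cells, was at 42.8, 44.6, 51.1, 57.2 and 43.9 in BA and 95.5, 60, 47.2 and 69.1 in WT (log2 -0.51, adjusted p = 0.023), while Chgb was not called (log2 0.53, adjusted p = 0.082). Without WT replicate 1 the call of Chga was lost (adjusted p = 0.067) and Chgb was called, and Chga was also lost without BA replicate 1, 2 or 5. Tph1, which makes serotonin in enterochromaffin cells, was at 35.8 ± 8.38 against 18.1 ± 5.82 (mean ± SD, n = 5 and 4, log2 0.98, adjusted p = 0.0019), and the peptide hormone Pyy was at 28.4, 22.2, 31.7, 39.8 and 27.2 against 18.6, 12.1, 12 and 11.4 (log2 1.14, adjusted p = 3.3e-04). Tph1 and Pyy lay above the WT range in all 5 BA mice, while the groups overlapped for Chga. Both turned lower in BA against the other 3 WT libraries. Of 17 tuft cell genes, 1 was higher and 2 were lower, but 8 were lower without BA replicate 4, Dclk1 among them (adjusted p = 0.017), and 8 with the other WT control. In the fit with all 9 mice Dclk1, Trpm5, Pou2f3 and Avil, which define the type, were not called (log2 -0.36, -0.01, -0.23 and 0.26).

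Some genes known from the stomach and from stratified epithelium were higher, while Muc5ac, Tff1, Trp63 and Krt5, which mark those tissues, were at or near the floor. Of 18 gastric genes, 7 had enough reads to be tested and 3 were higher, all by at least 2-fold, with a summed level of 32.1 to 43.3 against 4.96 to 5.32. Vsig1, a junction protein of gastric epithelium, was at 23.6, 30.7, 28.9, 20.4 and 24 in BA and 0.874, 1.96, 1.67 and 1.2 in WT (log2 fold change 4.14, SE 0.21, adjusted p = 1.1e-07). Of the genes that define gastric pit and gland cells, Muc5ac was at 0 against 0 to 0.0516, Tff1 at 0 to 0.534 against 0 to 0.103, Cldn18 at 0 to 0.20 against 0 and Anxa10 at 0 to 0.20 against 0 to 0.0464. Of 22 genes of squamous epithelium, 10 were tested, 7 were higher and 1 lower (5 higher by at least 2-fold), and the summed level was 1477 to 1840.0 against 803 to 856. Krt13, Trp63 and Krt5, given below, were each at most 6.79 in any BA or WT mouse. Other members thus made up nearly all of this sum in both groups. Krt13, a keratin of mucosal squamous epithelium, was at 2.47, 6.79, 4.72, 5.1 and 3.97 in BA and 0, 0.103, 0 and 0 in WT. Vsig1 and Krt13 were higher in every BA mouse than in any WT mouse. Trp63, the factor that defines basal squamous cells, was at 0 against 0 to 0.157, and Krt5 was at 0 to 0.243 against 0.157 to 0.464. Sfn, a widely expressed adaptor protein, rose, at 224 to 419 against 127 to 186.

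Glucose metabolism genes rose while genes of mitochondrial respiration fell. Of 18 glycolysis genes, Gapdh left out, 13 were higher and 3 lower (median log2 0.76, and 7 higher with the other WT control), and their summed level was 8265 to 9775 normalised CPM in BA and 4858 to 6111 in WT. The lactate exporter Slc16a3 was at 61.5, 89.5, 87.1, 54.3 and 75.1 in BA and 7.81, 7.17, 6.17 and 5.27 in WT (log2 fold change 3.47, SE 0.18, adjusted p = 1.1e-07). Slc2a1, which takes up glucose, was at 742, 895, 958, 669 and 815 against 162, 222, 216 and 193 (log2 fold change 2.03, SE 0.13, adjusted p = 3.7e-07). Ldha, which turns pyruvate into lactate, was at 1763, 2108, 1903, 1678 and 2246 against 1014, 1145, 1052 and 887 (log2 0.91, adjusted p = 2.9e-05), and Pfkp, a phosphofructokinase, was at 289 to 322 against 101 to 144. Pfkm, the form of that enzyme in muscle, had the largest fall, at 5.33 to 8.52 against 18.2 to 20.6 (log2 -1.56). Hk2 was not called, at 277, 234, 248, 180.2 and 201 against 296, 150.4, 129 and 137, where WT replicate 1 lay above the other WT mice and the gene was called higher without it. Slc16a3, Slc2a1 and Ldha did not overlap, with BA above WT, while the groups overlapped for Hk2.

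Nuclear genes of oxidative phosphorylation fell by small and even amounts. Of 27 tested, 22 were lower and 1 was higher (median log2 -0.32), and 11 were lower without BA replicates 1, 2 and 4. Ndufv1, a core subunit of complex I, was at 170.3, 151, 153, 151 and 160.4 in BA and 211, 236, 198 and 221 in WT (log2 -0.47, adjusted p = 1.9e-04). Ndufv1 lay below the WT range in all 5 BA mice. Sdhb, of complex II, was at 164 to 181 against 226 to 273, and Ndufb10, of complex I, had the largest fall (log2 -0.62). Cox5a, of complex IV, and Atp5a1, of the ATP synthase, were not called (log2 -0.01 and -0.15). The 1 higher gene, Ndufa4, of complex IV, was at 104 to 134 against 64.8 to 84 and turned lower against the other 3 WT libraries. No gene of the list fell by 2-fold. The share of mitochondrially encoded reads was lower in BA too, as given above.

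Fatty acid oxidation and ketogenesis genes were mostly lower. Of 23 tested, 15 were lower and 2 higher, and 5 were higher with the other WT control. Bdh1, which forms the ketone body beta-hydroxybutyrate, was at 129, 125, 124, 109 and 123 in BA and 231, 267, 244 and 227 in WT (log2 -1.00, adjusted p = 1.1e-06). Bdh1 was lower in every BA mouse than in any WT mouse. Ppara, a nuclear receptor that drives both pathways, was at 7.2 to 9.35 against 17.9 to 23.7 (log2 -1.42). Cpt1a, which admits fatty acids into mitochondria, was not called (log2 -0.11, adjusted p = 0.14).

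**Figure D3:**
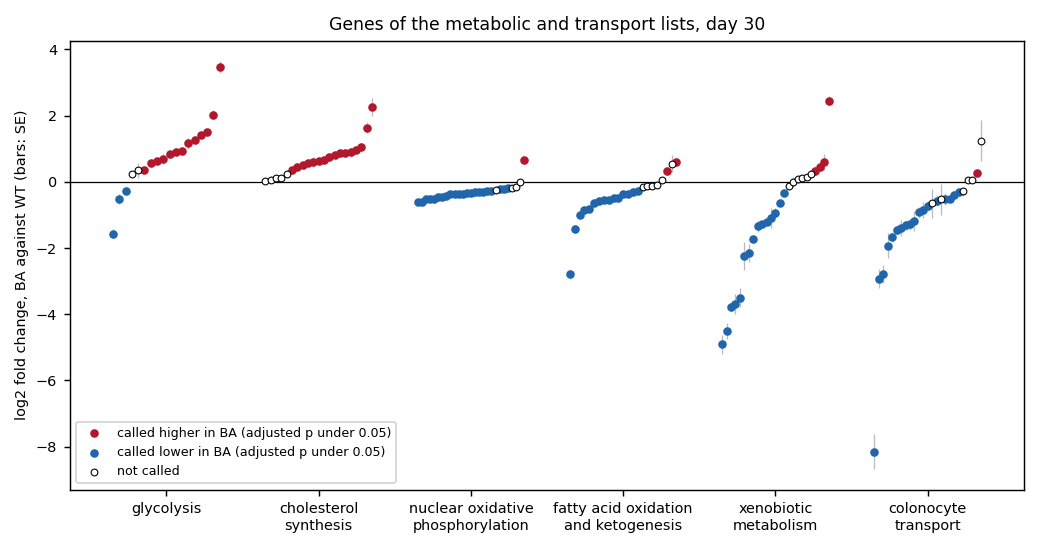
Log2 fold change, BA against WT, of each tested gene of 6 metabolic and transport lists, ordered within a list. Grey bars are the standard error derived from the F statistic of the edgeR fit. Filled points were called higher (red) or lower (blue) at an adjusted p under 0.05 and open points were not. Oxidative phosphorylation genes other than Ndufa4 lie in a narrow band at or below 0, cholesterol and glycolysis genes lie mostly above it, and the xenobiotic and transport lists have the longest tails downwards.

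Cholesterol synthesis genes rose together by moderate amounts. Of 21 tested, 16 were higher and 0 lower (median log2 0.64), with a summed level of 3034 to 3634 normalised CPM in BA and 1996 to 2370.0 in WT. Sqle, a controlled step of the pathway, was at 166, 200.1, 199, 159 and 186 in BA and 107, 81.4, 84 and 79.1 in WT (log2 1.04, adjusted p = 1.0e-05). Hmgcs1, an early enzyme of the pathway, was at 311, 405, 374, 312 and 394 against 238, 172, 179.6 and 197 (log2 0.86, adjusted p = 7.9e-05). Insig1, which holds the pathway's transcription factor in the endoplasmic reticulum and is one of its targets, was at 228, 274, 286, 149.9 and 235 against 88.6, 61.2, 67.2 and 83.3 (log2 fold change 1.64, SE 0.18, adjusted p = 2.0e-05). Sqle, Hmgcs1 and Insig1 did not overlap, with BA above WT. Dhcr7, which acts at the end of the pathway, was not called (log2 0.10).

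The 250 bases before the start of 3 genes of this list are shown because the list moved together and its promoters share letters that the choice of genes did not use. Of the 13 list genes with a RefSeq promoter all 13 held CCAAT on one strand or the other (also read as ATTGG), against 41.1% of all 27025 promoters of 300 bases, and so did all 10 of those called higher. The sterol regulatory element, searched as TCACNCCAC on both strands, was in 1 of 13 (Hmgcs1) against 1.44% of all promoters, and the TATA box, searched as TATAAA, in 0 of 13 against 15.7%. Capitals mark the matches to these motifs, which lie at -237, -176, -137 (the sterol element) and -45 in Hmgcs1, at -160, -96 and -55 in Msmo1 and at -216 in Insig1, counted to the first base of the match. Windows are those of RefSeq on GRCm38.p6: chr13:119690101-119690350 on the + strand for Hmgcs1, chr8:64733579-64733828 on the - strand for Msmo1, the sterol methyl oxidase (log2 fold change 0.91), and chr5:28071162-28071411 on the + strand for Insig1. The letters alone do not show that a factor was bound.
Hmgcs1: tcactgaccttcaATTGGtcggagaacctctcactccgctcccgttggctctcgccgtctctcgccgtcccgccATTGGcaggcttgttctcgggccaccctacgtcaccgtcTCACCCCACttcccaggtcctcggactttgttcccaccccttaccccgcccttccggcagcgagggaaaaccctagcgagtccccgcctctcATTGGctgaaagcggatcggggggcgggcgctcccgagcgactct
Msmo1: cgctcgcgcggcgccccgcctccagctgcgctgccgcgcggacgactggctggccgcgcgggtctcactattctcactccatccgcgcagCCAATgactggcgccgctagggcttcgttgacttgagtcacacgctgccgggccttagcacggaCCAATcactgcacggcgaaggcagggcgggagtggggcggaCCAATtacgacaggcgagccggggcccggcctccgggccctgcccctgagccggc
Insig1: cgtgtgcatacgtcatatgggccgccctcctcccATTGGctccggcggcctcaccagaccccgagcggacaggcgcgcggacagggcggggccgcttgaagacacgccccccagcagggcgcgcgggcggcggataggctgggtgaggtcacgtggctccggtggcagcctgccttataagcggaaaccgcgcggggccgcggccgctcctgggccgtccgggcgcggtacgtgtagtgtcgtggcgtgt

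Detoxifying enzymes were mostly lower, with steep falls of single genes. Of 25 tested, 15 were lower and 4 higher (2 higher without either set of BA libraries and without several single mice, and 8 with the other WT control), and the summed level was 4460.0 to 6012 normalised CPM in BA and 10790.0 to 12570.0 in WT. Sult1a1, which adds sulphate to phenols, was at 14.1, 14.5, 23.2, 8.44 and 25.5 in BA and 375, 574, 586 and 491 in WT (log2 fold change -4.90, SE 0.28, adjusted p = 2.1e-07). Ces1g, a carboxylesterase, was at 12 to 25.2 against 349 to 519 and Cyp4b1, a cytochrome P450, at 3.81 to 8.86 against 40.3 to 97.1 (log2 -4.51 and -3.69). Cyp2c55, a cytochrome P450 of the colon, was at 1334, 2029, 1056, 1667 and 596 against 5149, 6295, 6187 and 6053 (log2 -2.15, adjusted p = 6.9e-05). In the opposite direction, Gsta4, a glutathione transferase for products of lipid peroxidation, was at 163, 140.3, 173, 167 and 159 against 32.3, 33.8, 21.2 and 29.3 (log2 fold change 2.45, SE 0.13, adjusted p = 1.1e-07). Gsta4 lay above the WT range in all 5 BA mice, while Sult1a1 and Cyp2c55 lay below the WT range in all 5 BA mice. The drug receptor gene Nr1i2 and the exporter Abcg2 were not called (log2 0.10 and 0.14).

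Bile acid and prostaglandin genes were lower in part. Of 9 bile acid genes tested, 4 were lower and 0 higher, with Nr1h4, which encodes the bile acid receptor FXR, at 69.3, 61.8, 59.4, 79.8 and 84.7 in BA and 176, 91.9, 107 and 108 in WT (log2 -0.77, adjusted p = 0.0029). Fgf15, its ileal target, was at 0.0601 to 0.166 against 0, at or near the floor. Of 17 prostaglandin genes, 11 were lower and 3 higher, and 7 were lower without BA replicates 1, 2 and 4. Ptgs2, the inducible cyclooxygenase, was at 4.88, 4.15, 7.53, 2.97 and 5.03 against 8.17, 7.99, 9.69 and 9.29 (log2 -0.86, adjusted p = 0.0049), and Ptgs1, the constitutive one, was at 23.1 to 38.1 against 36.9 to 50.4. Nr1h4 and Ptgs2 were lower in every BA mouse than in any WT mouse. Ptgs2 and Ptgs1 both lost their calls without BA replicates 1, 2 and 4, and also with the other WT control. The call of Ptgs2 was also lost with all 5 day 30 groups in 1 fit. Ptger3, a receptor for prostaglandin E2 found on nerve and muscle, had the largest fall (log2 -1.64), and Abcc4, which exports prostaglandins, had the largest rise (log2 0.86).

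Ly6g was high in libraries where S100a8, S100a9, Cxcr2, Elane and Mpo, which define neutrophils, were at or near the floor. The list had 20 genes, of which only 6 passed the filter on low counts, 0 were higher and 2 lower. The median log2 fold change of these 6 was 0.51, and the largest was 1.15. Their summed level overlapped, at 32 to 120 normalised CPM in BA and 16.6 to 98.2 in WT. Without BA replicate 4, 3 of 6 were higher and 1 lower, and without WT replicate 1, 2 of 8 were higher. The calprotectin genes S100a8 and S100a9, which fill the cytoplasm of neutrophils, were at 0, 0.24, 0.166, 0.121 and 0 and at 0.0668, 0.0601, 0.248, 0.243 and 0.296 in the BA mice, under 0.4 normalised CPM in each. Cxcr2, the chemokine receptor of neutrophils, was at 0 to 0.0828 in BA and 0 to 0.0522 in WT, and the granule genes Elane and Mpo were at 0 in every BA mouse. Mmp8, a neutrophil collagenase, was at 0.0607 to 0.993 against 0 to 0.154. Csf3r, the receptor for the growth factor of neutrophils, was not called (log2 0.50, adjusted p = 0.098). Ly6g shares 6.51% of its words with other genes and Il1rn 0.378%.

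Il5ra was likewise higher where other eosinophil genes were not called. Of 14 mast cell and eosinophil genes, 7 were tested and Il5ra was the 1 that was called. The eosinophil peroxidase Epx was at 0 to 0.134 in BA and 0.0514 to 0.139 in WT, Ccr3 was at 0 to 0.267 against 0 to 0.209, and Siglecf, a lectin of eosinophils, was not called (log2 -0.36, adjusted p = 0.097). Mcpt1, a protease of mucosal mast cells, was not called (log2 0.22, adjusted p = 0.63).

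**Figure D4:**
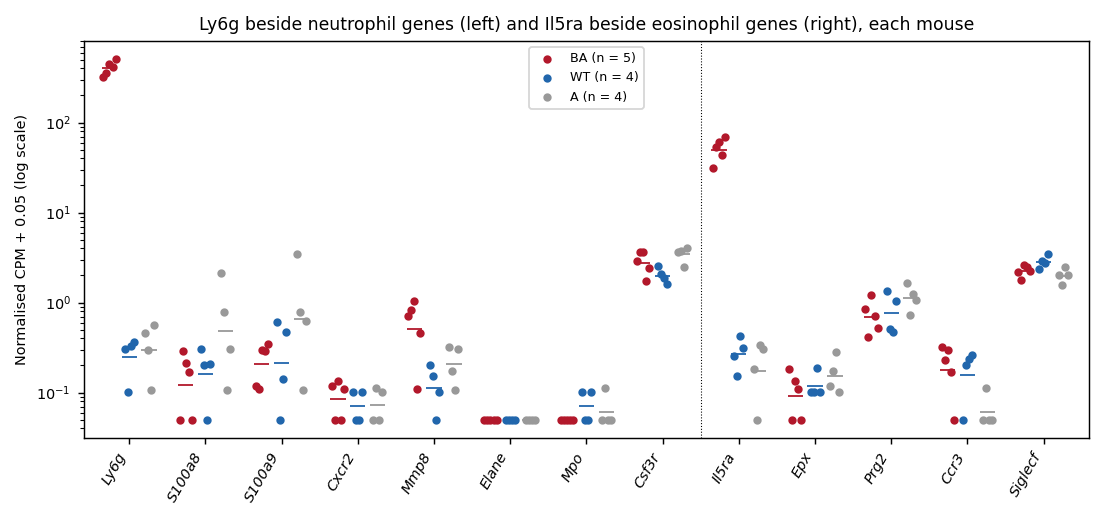
Normalised CPM plus 0.05 (log axis) of Ly6g and neutrophil genes (left of the dotted line) and of Il5ra and eosinophil genes (right) in each BA (n = 5), WT (n = 4) and A (n = 4) mouse, with geometric means as bars. Ly6g and Il5ra are apart from WT and A in all 5 BA mice, while the other granulocyte genes lie at a few CPM or under in all 3 groups.

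Few macrophage genes were called against the day 30 WT mice. Of 22 macrophage and dendritic cell genes, 3 were higher and 4 lower (1 lower without BA replicates 1, 2 and 4, and 11 of 21 with the other WT control), with a summed level of 388 to 561 against 417 to 562. C1qa, a complement protein of tissue macrophages, was at 68.4, 53.2, 59.9, 43 and 50.6 in BA and 59.6, 56, 55.4 and 52 in WT (log2 -0.03, adjusted p = 0.85), and Cx3cr1, a chemokine receptor of resident macrophages, was not called either (log2 0.10, adjusted p = 0.56). C1qa overlapped between the groups. Cd163, a haemoglobin receptor of macrophages in deeper layers, fell, at 0.781 to 4.8 against 9.23 to 12.9 (log2 -2.28). Of 11 MHC class II genes, 2 were lower and 0 higher. H2-Ab1, an MHC class II chain, was at 107 to 166 against 116 to 142, and Cd74, its invariant chain, was not called (log2 0.19, adjusted p = 0.33).

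T cell genes were lower at low levels. Of 20 T and NK cell genes tested, 11 were lower and 0 higher (median log2 -0.85), and 7 of 18 were lower with the other WT control. Cd8a, the coreceptor of cytotoxic T cells, was at 0.401, 0.18, 0.497, 1.03 and 0.947 in BA and 4.11, 2.37, 2.6 and 1.83 in WT (log2 fold change -2.13, SE 0.39, adjusted p = 7.9e-04). Cd3e, of the T cell receptor complex, was at 1.54, 1.32, 1.82, 1.27 and 1.3 against 3.14, 2.94, 2.04 and 1.77 (log2 -0.78, adjusted p = 0.0093) and turned higher in BA against the other 3 WT libraries. Cd8a lay below the WT range in all 5 BA mice, while Cd3e overlapped between the groups. Cd4, Foxp3 and Gzmb, of helper, regulatory and cytotoxic cells, were not called (log2 0.07, 0.70 and 0.69), though without WT replicate 1 Foxp3 and Gzmb were.

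Plasma cell genes were lower than in the day 30 WT mice, as were the epithelial genes that carry IgA into the lumen and attract its makers. Of 16 B and plasma cell genes tested, 9 were lower and 2 higher, and 5 were lower without BA replicates 3 and 5. With the other WT control only 2 of 17 were lower, and Jchain and Igha lost the call (log2 -0.70 and -0.13, adjusted p = 0.13 and 0.79). Jchain, which joins IgA into dimers, was at 373, 238, 263, 187 and 97.9 in BA and 499, 442, 827 and 615 in WT (log2 fold change -1.37, SE 0.31, adjusted p = 0.003), and Igha, the IgA heavy chain, was at 2330.0, 1242, 1397, 968 and 472 against 2535, 2191, 3536 and 2744, with overlap (log2 -1.11, adjusted p = 0.016). Ms4a1 and Cd79a, of mature B cells, were not called (log2 -0.16 and -0.15). The members that rose, Sdc1 and Prdm1, are also made by epithelium. Pigr, the epithelial receptor that carries IgA, was at 1527, 656, 826, 745 and 897 in BA and 4768, 2783, 3858 and 3585 in WT (log2 fold change -2.02, SE 0.23, adjusted p = 3.0e-05). Ccl28, the chemokine by which colon epithelium attracts IgA plasma cells, was at 42.4, 22.2, 26, 17.9 and 28.2 against 166, 82.1, 102 and 117 (log2 fold change -2.10, SE 0.24, adjusted p = 2.9e-05). Jchain, Pigr and Ccl28 were lower in every BA mouse than in any WT mouse, while the groups overlapped for Igha.

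Inflammatory cytokines were near the floor in both groups, with some exceptions. Of 28 genes, 14 were tested, 4 were higher and 4 lower (28.6% each), near the shares over all genes. Il1b was at 7.01, 9.85, 4.8, 4.79 and 5.27 in BA and 2.98, 1.7, 2.04 and 1.1 in WT (log2 1.69, adjusted p = 7.1e-04), and Tnf was at 5.08, 2.46, 2.65, 2.37 and 5.03 against 3.34, 0.67, 0.696 and 0.47, called with overlap (log2 1.44, adjusted p = 0.034) and not called without BA replicate 1 or 5 or without WT replicate 2, 3 or 4 (adjusted p up to 0.1). Il6, Il11, Cxcl1 and Cxcl2 were too low to be tested, at no more than 1.14 normalised CPM in any BA mouse. Il18, a cytokine stored by epithelium, was at 3.61, 3.06, 5.3, 2.55 and 6.04 against 43.9, 41, 41.5 and 26.9 (log2 fold change -3.24, SE 0.23, adjusted p = 8.1e-07). Ccl20, the chemokine of epithelium over lymphoid follicles, was at 0.468, 0.12, 0.166, 0.182 and 0.533 against 4.93, 3.76, 2.97 and 3.08 (log2 -3.60, adjusted p = 7.8e-06), and Cxcl16 had the largest rise in a tested gene of the list other than Il1b (log2 1.45). Il1b did not overlap, with BA above WT, while Il18 and Ccl20 did not overlap, with BA below WT and Tnf overlapped between the groups.

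Single defence genes of epithelium and sensors of microbes moved apart, while the list had calls near the shares over all genes. Of 24 tested, 6 were higher (25%) and 8 lower (33.3%), against 25.8% and 29.3% of all genes. With the other WT control 11 of 23 were higher. Tlr2, a receptor for bacterial lipoproteins, was at 9.42, 7.99, 9.19, 5.89 and 8.58 in BA and 81.8, 42, 55.6 and 54 in WT (log2 fold change -2.84, SE 0.18, adjusted p = 4.4e-07). Tlr4, the receptor for lipopolysaccharide, went the other way, at 40.4, 37.5, 36, 47.8 and 38.7 against 16.2, 7.22, 11.2 and 12.5 (log2 fold change 1.76, SE 0.18, adjusted p = 1.4e-05). Retnlb, an antimicrobial protein of goblet cells, was at 55.6, 60.5, 72.1, 19.2 and 99 against 274, 359.6, 599.9 and 571 (log2 -2.89, adjusted p = 7.9e-05). With the other WT control Retnlb lost its call. The antimicrobial lectin Reg3b was at 2.47, 0.12, 21.8, 2.18 and 48.4 in BA and 1756, 1.75, 0.649 and 6.16 in WT, and its relative Reg3g was at 4.07, 0.36, 15.6, 1.58 and 15 against 526, 1.7, 1.3 and 4.96. Tlr4 lay above the WT range in all 5 BA mice, while Tlr2 and Retnlb lay below the WT range in all 5 BA mice and the groups overlapped for Reg3b and Reg3g. WT replicate 1 holds the high values of both, and without it both had positive log2 fold changes (2.39 and 1.44), so their calls (adjusted p = 0.049 and 0.039) rest on that mouse, and both were lost without BA replicate 1, 2, 3 or 4 as well. The oxidase Duox2 and the siderophore-binding Lcn2 were not called (log2 0.40 and -0.50). Of 24 interferon-stimulated genes, 7 were lower and 0 higher (11 lower without BA replicate 1 and also without replicates 1, 2 and 4, 3 higher without replicates 3 and 5, and 3 higher and 11 lower with the other WT control), with Zbp1, a sensor of nucleic acids, at 3.22 to 6.85 against 11.1 to 22.3 and Isg15 not called (log2 0.69, adjusted p = 0.13).

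Muscle and enteric nerve lists had the largest shares of lower genes of all lists tested against the day 30 WT mice. Of 16 smooth muscle genes, 14 were lower and 0 higher (median log2 -1.00), and the summed level was 1521 to 5634 in BA and 6941 to 8243 in WT. Fewer were lower with the other WT control, 7 of 16 smooth muscle genes and 10 of 18 enteric nerve genes. Acta2, smooth muscle actin, was at 861, 264, 764, 534 and 479 in BA and 1183, 1377, 1399 and 1322 in WT (log2 fold change -1.20, SE 0.26, adjusted p = 0.0025), and Myh11, its myosin, was at 1159, 255, 994, 652 and 571 against 1513, 1527, 1872 and 1697 (log2 -1.20, adjusted p = 0.0085). BA replicate 2 had the lowest value of both. Of 19 genes of enteric neurons, glia and the pacemaker cells of Cajal, 18 were lower (median log2 -1.60). Elavl4, an RNA-binding protein of neurons, was at 1.07, 0.24, 1.32, 1.09 and 0.355 against 3.91, 3.2, 3.34 and 1.77 (log2 -1.94, adjusted p = 0.0017). Acta2, Myh11 and Elavl4 were lower in every BA mouse than in any WT mouse. S100b of glia was at 0.662 to 1.2 against 2.19 to 3.66, and Kit of pacemaker cells was at 19.3 to 28.6 against 49.1 to 75.4. How much muscle wall was taken with each piece of colon is not given in the sources used here, and its part in these falls was not tested.

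Fibroblast and vessel genes fell in part and by less. Of 25 fibroblast and matrix genes, 13 were lower and 0 higher, with a summed level of 2175 to 2941 against 3148 to 3764. Pdgfra, the growth factor receptor of gut fibroblasts, was at 51.3, 62.7, 76.4, 51.2 and 57.1 in BA and 92.6, 77.9, 93 and 97.2 in WT (log2 -0.60, adjusted p = 0.0011), and Postn, a matrix protein of fibroblasts near the crypt, had the largest fall (log2 -1.17). Col1a1, the main fibrillar collagen, was not called, at 124 to 195 against 169 to 181. Of 16 endothelial genes, 7 were lower and 0 higher, but 8 higher and 3 lower of 16 with the other WT control. Cldn5, a claudin of vessel walls, was at 2.06 to 3.54 against 6.09 to 8.97 (log2 -1.28), and Cdh5, the cadherin of all endothelium, was not called (log2 -0.17, adjusted p = 0.18). Fat cell markers were low and uneven, with Adipoq at 0.0514, 0, 0.0928 and 16.4 in the WT mice and at most 1.07 in BA. In the other direction, Upk1b, a uroplakin, was at 18.8, 21.7, 21.4, 17.4 and 19.6 against 3.03, 3.3, 2.6 and 3.91 (log2 fold change 2.61, SE 0.13, adjusted p = 9.3e-08), and Msln, known from mesothelium and from some epithelial tumours, was at 6.48, 9.25, 19.3, 4.92 and 16.5 against 0.771, 2.73, 2.09 and 2.5 (log2 2.45, adjusted p = 8.7e-04). Upk1b and Msln did not overlap, with BA above WT, while Pdgfra did not overlap, with BA below WT.

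**Figure D5:**
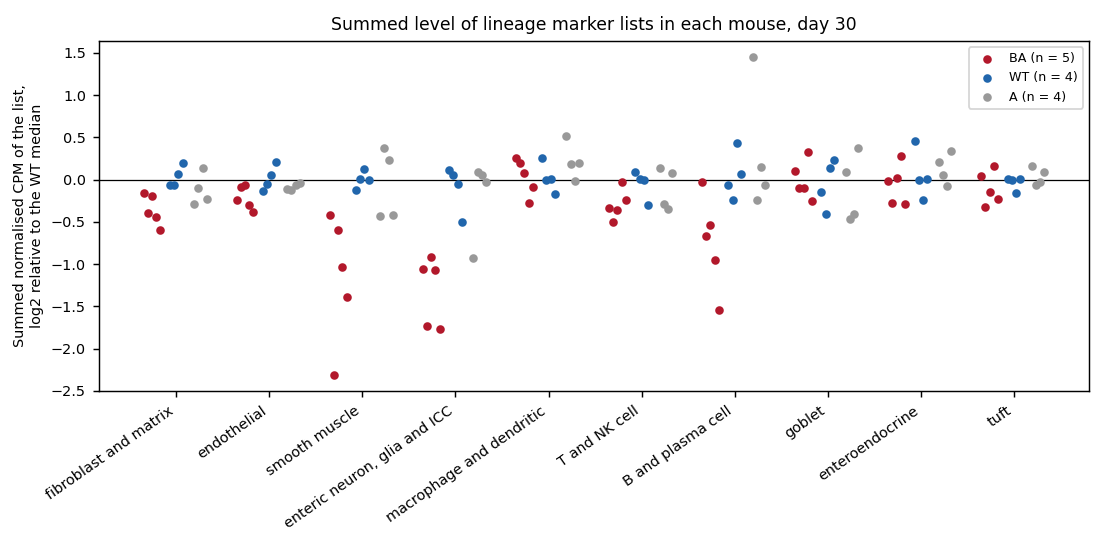
Summed normalised CPM of 10 lineage lists in each BA (n = 5), WT (n = 4) and A (n = 4) mouse, on a log2 scale relative to the median of the WT mice. Smooth muscle and enteric nerve sums of all 5 BA mice lie below all 4 WT mice, whereas goblet, enteroendocrine, tuft and macrophage sums overlap.

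Hox genes, which mark position along the gut, were lower in part. Of 14 tested, 9 were lower and 0 higher, against 3 higher and 2 lower of 13 with the other WT control. Hoxb6 was at 54, 61.9, 55.8, 61.3 and 55.1 in BA and 76.6, 68.8, 71.1 and 78.7 in WT (log2 -0.36, adjusted p = 0.0011), but was higher in BA against the other 3 WT libraries, and Hoxd10 was at 5.14, 2.16, 6.45, 4.01 and 4.32 against 7.56, 9.18, 8.58 and 9.08 (log2 -0.98, adjusted p = 0.0042). Hoxb6 and Hoxd10 lay below the WT range in all 5 BA mice. Hoxd10 lost its call with the other WT control. The most posterior genes Hoxb13 and Hoxd13 were near 0 in both groups, at no more than 0.121 normalised CPM in BA. Many Hox genes are expressed in gut mesenchyme, whose lists were lower in the same mice, and the part of that in the result was not tested.

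Few proliferation genes were called against the day 30 WT mice. Of 22 cell cycle genes, 6 were higher and 0 lower, near the share over all genes, and 3 were higher without WT replicate 4 and without either set of BA libraries. The other WT control gave 3 higher and 6 lower of 22. Mki67, a marker of cycling cells, was at 122 to 142 in BA and 116 to 177 in WT (log2 -0.22, adjusted p = 0.097). Rrm2 and Ccne1, of DNA synthesis and entry into S phase, had the largest rises (log2 0.45 and 0.47), below 2-fold. Rrm2 lost the call without any 1 of 6 mice (adjusted p up to 0.091) and Ccne1 without BA replicate 3 or WT replicate 4 (adjusted p up to 0.067). Of 17 p53 and senescence genes, 4 were higher and 1 lower, with 7 higher without WT replicate 2, and 9 higher and 5 lower with the other WT control. Cdkn1a, which encodes the cell cycle inhibitor p21, was at 390.3, 341, 425, 301 and 405 against 287, 275, 199 and 266 (log2 0.53, adjusted p = 0.0033), and Cdkn2a, the senescence gene of p16 and p19, was at 0.118 to 0.182 against 0 to 0.104, near the floor in both groups. Cdkn1a was higher in every BA mouse than in any WT mouse, while the groups overlapped for Mki67. Fas, a death receptor, fell (log2 -0.95).

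Ribosome biogenesis genes rose by small amounts. Of 22 tested, 15 were higher and 0 lower (median log2 0.26). The count was 8 without BA replicates 3 and 5 and 5 without 1, 2 and 4, and the other WT control gave 8 higher and 4 lower. Ncl, nucleolin, had a log2 fold change of 0.24, and Nhp2, of the particles that modify ribosomal RNA, was at 44.2, 41.5, 44.5, 37 and 52.1 in BA and 24.3, 29.3, 22.1 and 20.3 in WT (log2 0.86, adjusted p = 1.2e-04). Myc itself was at 43.2, 49.8, 36.2, 44.1 and 33.5 against 20.9, 22, 25.7 and 23.6 (log2 0.84, adjusted p = 1.6e-04). Nhp2 and Myc did not overlap, with BA above WT. Nhp2 lost its call with the other WT control.

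Proteases that cut matrix and activate plasminogen moved in both directions. Of 20 tested, 9 were higher and 5 lower, Prss22 of the leading genes among them. Plaur, the receptor that holds urokinase at the cell surface, was at 69.4, 63.2, 81.7, 43.6 and 59.3 in BA and 11.9, 9.18, 9.32 and 10.4 in WT (log2 fold change 2.63, SE 0.16, adjusted p = 3.5e-07), while Plau, urokinase itself, was not called (log2 -0.35, adjusted p = 0.15). Mmp10, a stromelysin of epithelium, was at 3.34, 4.93, 4.63, 3.4 and 3.43 against 0.36, 0.155, 0.0464 and 0.365 (log2 4.07, adjusted p = 4.6e-06), and Mmp13, a collagenase, was at 11.5 to 39.2 against 4.59 to 8.63. Plaur and Mmp10 lay above the WT range in all 5 BA mice. Mmp9, a gelatinase, had the largest fall, at 1.09 to 5.13 against 5.5 to 11, and the inhibitor Timp3 was at 20.5 to 31.6 against 39.8 to 59.8.

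Clock genes moved in both directions. Of 16 tested, 7 were higher and 4 lower, with 4 higher without BA replicates 3 and 5. Per2, of the repressing arm, was at 20.5, 17.5, 23.3, 14.3 and 22.8 in BA and 7.04, 12.4, 12.2 and 10.7 in WT (log2 0.88, adjusted p = 0.0019), and Nr1d1, of the second loop, was at 85.3 to 118 against 31.6 to 95 (log2 0.92). Per2 was higher in every BA mouse than in any WT mouse. Hlf and Nfil3, output factors, fell (log2 -1.56 and -1.14). The hour at which each mouse was sampled is not given in the sources used here, and hour and genotype cannot be told apart for these genes.

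The same BA mice were then set against the A mice, which carry the Alk5 deletion without the Braf allele, to show where BA differs from mice with the deletion alone by a direct test. The test called 3725 of 17128 genes higher in BA (21.7%) and 4036 lower (23.6%). A replicates 1 and 3 carried genes of the ileum, with Fabp6, an ileal bile acid binding protein, at 481, 0.671, 82.7 and 1.29 normalised CPM and Olfm4, a small intestinal crypt marker, at 21.8, 0.122, 12.1 and 0.155 in the 4 A mice. With those 2 libraries left out, a choice made after the data were seen, 4275 genes were higher and 4085 lower. The A mice resembled BA in the level of Gm13394, at 106 to 127 normalised CPM. Their Gapdh was low, at 18.4 to 31.8, as it was in BA replicates 1, 2 and 4 but not in 3 and 5.

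Lists are given here for BA against A on their own, since both comparisons use the same BA libraries and are not independent. Of 20 ERK genes, 16 were higher and 2 lower, and Dusp6 was at 45.8, 29.6, 48.7 and 35.5 in the A mice (log2 fold change 2.28, SE 0.21, adjusted p = 1.2e-05). Cholesterol synthesis had 20 of 21 genes higher, with Hmgcs1 at 183, 106, 188 and 129.7 in A (log2 fold change 1.27, SE 0.18, adjusted p = 2.2e-04). Of 18 glycolysis genes 15 were higher and 2 lower, and Slc2a1 was at 221, 146, 179 and 186 in A (log2 fold change 2.19, SE 0.15, adjusted p = 2.0e-06).

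Single genes are given by their levels in the A mice. Ly6g was at 0.404, 0.244, 0.0572 and 0.516 in the A mice (log2 fold change 10.37, SE 0.32, adjusted p = 9.4e-09), Il5ra at 0.135, 0, 0.286 and 0.258 and Il1rn at 29.1, 6.65, 21.1 and 11.3. Sult1a1 was at 400.3, 492, 305 and 473 in A (log2 fold change -4.58, SE 0.29, adjusted p = 1.6e-06). Of 16 smooth muscle genes 9 were lower in BA than in A, and the summed level in A was 5614 to 9799. Ribosome biogenesis genes were mostly not called, with 2 of 22 higher and 3 lower, and Nhp2 was at 62, 41.3, 31.3 and 24.4 in A and was not called (log2 0.18, adjusted p = 0.51). The summed level of the list was 1522 and 1304 in A replicates 1 and 3, which carried ileal genes. It was 1189 and 995 in A replicates 2 and 4, below the 1287 to 1380 of the BA mice.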

How the data were processed

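RNA-seq was performed on whole proximal colon (TruSeq RNA v2, NextSeq, paired reads of 36 bases). The authors trimmed reads with Trim Galore 0.6.4, checked them with FastQC 0.11.8, aligned them to GRCm38 with HISAT2 2.1.0 and counted them with featureCounts 1.6.4. The deposited values are raw read counts per gene for 55421 identifiers, of which 55154 carry a symbol. The strand setting of the counting is not given in the sources used here, so reads of a gene and of an antisense partner cannot be told apart. Labels put 5 BA, 4 WT and 4 A libraries in the groups used here. That replicates are separate mice rests on the study's methods.

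Genes with few reads were dropped by filterByExpr and TMM gave the scaling. In R 4.3.3, edgeR 4.0.16 (quasi-likelihood) compared BA with WT, and separately with A, two-sided, with Benjamini-Hochberg adjustment over all genes tested and a threshold of 0.05. The SE of the log2 fold change was derived from the test, as its absolute value divided by the square root of the F statistic. limma 3.58.1 and DESeq2 1.42.0 served as alternatives, with other scalings, filters, samples, a replicate block and left-out libraries. The test was checked on simulated counts for BA against WT. Of 17471 genes, 100 were changed by a log2 of 1 and 100 by 2, evenly up and down. The test recovered 74% and 91% of them, and 5.71% of calls were unchanged genes. Far more genes were called in the data, with more large falls than rises, so scaling and false calls in that setting were not checked.

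The comparison and the 46 gene lists (889 genes) were chosen with earlier results of these data known. Named genes were the anchor genes of lists, the called gene of each list with the largest change in each direction at a mean log2 CPM from 1 upwards, and the 12 leading genes in each direction (adjusted p under 0.05, mean log2 CPM from 3 upwards, groups not overlapping), with Tgfbr1, Braf, Gm13394, Gapdh and Ddx3y; not all of them are printed, and some items are not reported here. Of 236 genes named, 45 fell outside this rule and were chosen after their values were seen: Egr1, Ccnd1, Epha2, Emp1, Egfr, Sp5, Slc20a1, Trpm6, Apob, Tjp1, Atoh1, Zg16, Klk1, Itln1, Clps, Defa24, Vsig1, Sfn, Slc2a1, Insig1, Dhcr7, Msmo1, Ces1g, Cyp4b1, Nr1i2, Elane, Mpo, Csf3r, Ccr3, Siglecf, Igha, Cd79a, Pigr, Ccl20, Cxcl16, Tlr2, Zbp1, Kit, Rrm2, Nhp2, Myc, Timp3, Nfil3, Fabp6 and Olfm4. Words of 36 bases were compared between transcripts, and over 20% of words were shared with another gene for Gm13394, Gapdh, Gsdmc2, Gsdmc3, Ces2b, Dusp5, Etv5, Ccnd1, Krt8, Klk1, Mptx1, Lyz1, Defa24, Tff1, Sfn, Fgf15, Foxp3 and Timp3, whose levels are uncertain. Promoters are from RefSeq (GRCm38.p6), matched by symbol.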

Additional observations from a re-analysis of the deposited data

Results flagged for a closer look

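In 31 of 413 groups of values of named genes, the highest or lowest mouse lay apart from the others of its group by Dixon's criterion, where chance alone gives about 1 in 20. Values are normalised CPM.

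WT replicate 1 was the high mouse for 9 genes. Reg3b was at 1756 in that mouse, with the next WT mouse at 6.16, and Reg3g at 526, with the next at 4.96. The others were Hk2 at 296, Pfkp at 144, Pyy at 18.6, Tnf at 3.34, Gzmb at 2.42, Syt8 at 1.8 and Foxp3 at 1.39. Their part in the calls of other genes was not tested, beyond the fits without that mouse.

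BA replicate 4 stood apart for 6 genes of epithelial lineages and ketogenesis. It was highest for Chgb at 218, Tph1 at 50.4, Trpm5 at 11.5 and Sis at 8.25, and lowest for Reg4 at 488 and Bdh1 at 109.

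BA replicate 1 was highest for Pigr at 1527, Atoh1 at 46.5 and the B cell genes Cd79a at 5.74 and Ms4a1 at 3.01. Other BA mice stood apart for Erbb3 (809, replicate 2, lowest), Id3 (61, replicate 5) and Mmp9 (5.13, replicate 3). WT replicate 2 was highest for Sfn at 186, Ndufb10 at 151 and Trim29 at 2.42, and WT replicate 3 for Slc26a3 at 1611 and Ptgs1 at 50.4. WT replicate 4 was highest for Cdh5 at 19.3, Adipoq at 16.4 and Gli1 at 15.5, and lowest for Il18 at 26.9.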

How the results depend on the processing

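Of 3993 values of the named genes under 19 alternatives, 3848 kept their side of the threshold, 88 lost the call, 40 gained one and 17 changed sign. A change of sign was counted only where the gene was called in the main or the alternative fit. Uncalled genes that changed sign are therefore among the 3848. With RLE scaling and with DESeq2 no named gene changed its call. Only the other control group, 3 WT proximal colon libraries, moved the counts of 2-fold calls by over 1.5 times, to 3092 higher and 3793 lower, and it moved 46 of 92 counts of the gene lists by over 1.5 times. The 3 libraries had at most 0.185 CPM of the Y-linked Ddx3y, against at least 33.9 in every BA and 34.6 in every day 30 WT mouse. By this gene the BA and day 30 WT mice were male and the 3 libraries came from females. The cause of the changes was not tested, and sex and control group cannot be told apart in these 3 libraries. Against them the log2 fold change was 0.347 for Ihh, 0.931 for Slc26a3, 2.382 for Aqp8, 1.188 for Car4, -2.915 for Sis, -1.218 for Atoh1, 0.880 for Reg4, -0.273 for Tph1, -0.507 for Pyy, -0.787 for Ndufa4, -0.428 for Cx3cr1, 1.030 for Cd3e, 1.356 for Cdh5, 0.766 for Hoxb6 and 9.104 for Ddx3y. The same control took the call from Tgfb2, Id1, Id4, Sp5, Dll4, Slc20a1, Zg16, Ptgs2, Ptgs1, Jchain, Igha, Retnlb, Hoxd10, Nhp2 and Ccne1. Leaving out 1 mouse at a time gave -6.165 to 2.385 for Reg3b and -4.740 to 1.437 for Reg3g, positive without WT replicate 1 alone.

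Leaving out 1 mouse at a time gave 4093 to 4501 genes higher and 4703 to 4924 lower against WT (856 to 970 and 1791 to 2076 at 2-fold), and 3244 to 4371 higher and 2992 to 4332 lower against A. Without BA replicates 3 and 5, chosen after the data were seen, 3866 were higher and 4483 lower, and without 1, 2 and 4 the counts were 3306 and 3636. Labels give the groups the same replicate numbers, but the deviations of same-numbered mice correlated by -0.035 to 0.090 for BA with WT and -0.048 to 0.137 for BA with A, not above 0.1 in every pair, so the numbers were not taken as pairs; with the replicate block 4149 genes were higher and 4584 lower (3178 and 3069 against A). Without 1 mouse, the calls lost were those of Ihh, Aqp8, Chga, Tnf, Reg3b, Reg3g, Rrm2 and Ccne1, and those gained were of Ccnd1, Mki67, Lyz1, Chgb, Dclk1, Hk2, Csf3r, Foxp3, Gzmb, Cd79a and Isg15. Low totals limit genes under about 0.2 CPM.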
